A study of Mus musculus with 23 samples.

Results

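The 9 genes described here were listed together for cyclic AMP and G-protein signalling in the striatum, the forebrain region that includes the nucleus accumbens. They were chosen by gene symbol as Adcy5, Gnal, Gng7, Pde10a, Pde1b, Rgs9, Rasd2, Arpp21 and Syndig1l. Most of the 9 encode parts of that signalling machinery, while Syndig1l encodes a membrane protein of striatal neurons. Each was read from the probe set that carries its symbol alone, and all 9 had exactly 1 such probe set, out of 22180 genes named in this way. Levels were measured on whole-transcript microarrays in nucleus accumbens tissue taken by microdissection from 23 C57BL/6J mice, with 1 array per mouse. The arrays were labelled as 6 males with Nr1d1 knockdown, 6 control males, 6 females with Nr1d1 knockdown and 5 control females. Knockdown mice had received an adeno-associated virus (AAV) with a short hairpin RNA against Nr1d1 in the accumbens, and control mice the same kind of virus with a scrambled hairpin, so every mouse had been injected. Tissue was taken at about 15 weeks of age and about 5 weeks after injection. The labels do not say which cells took up the virus or which promoter drove the hairpin. They also mention a postpartum day of collection on samples of both sexes, and reproductive state was therefore left out of the grouping.

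Most neurons of the accumbens are medium spiny neurons, which carry dopamine receptors of the D1 or D2 type. In these neurons the D1 receptor and the adenosine receptor encoded by Adora2a act through the G protein Golf on adenylyl cyclase 5 to make cyclic AMP, while the D2 receptor acts against it through Gi and Go proteins. Phosphodiesterases break cyclic AMP and cyclic GMP down, RGS proteins shorten the signal by speeding GTP hydrolysis on G-protein alpha subunits, and protein kinase A passes cyclic AMP on to substrates such as DARPP-32 and ARPP-21.

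Levels are given on the log2 scale of the deposited table, 1 value per mouse. The medians of the arrays lay between 5.84 and 5.88 in males and between 6.11 and 6.17 in females, with upper quartiles of 7.49 to 7.54 in males and 7.76 to 7.80 in females. With such a gap, sex cannot be told apart from array processing, so no level was compared between the sexes. Markers of medium spiny neurons were present on every array. Drd2, the D2 receptor, lay between 10.80 and 11.52 in males and between 11.40 and 11.76 in females, and Drd1, the D1 receptor, between 9.82 and 10.23 in males and between 10.27 and 10.72 in females. Most arrays also carried transcripts that the accumbens is known to have little of. Slc17a7, the vesicular glutamate transporter of cortical excitatory neurons, lay between 4.64 and 10.34 in males and between 8.92 and 11.13 in females. In males it fell into separate clusters, with 4 arrays at or below 6.17 and 8 arrays at or above 8.01. Slc17a6, the vesicular glutamate transporter of subcortical excitatory neurons such as those of the septum, lay between 6.45 and 7.97 in males and between 6.50 and 7.13 in females. In bulk tissue, fewer cells of a type and less RNA per cell cannot be told apart.

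The targeted transcript gives a check of the labels. Nr1d1, which encodes the circadian repressor REV-ERBα, had values of 9.44, 9.57 and 9.76 (lowest, median and highest) in males labelled knockdown, against 9.42, 9.50 and 9.85 in control males. In females labelled knockdown it stood at 9.73, 9.98 and 10.17, against 10.05, 10.06, 10.09, 9.93 and 10.09 in the 5 control females. The groups overlapped in both sexes. The difference, labelled knockdown minus control, was −0.01 (SE 0.09) in males and −0.05 (SE 0.09) in females, and limma, a linear model with empirical Bayes variances fitted to all probe sets, gave adjusted p = 0.997 in males and 0.963 in females. The hairpin arrays are therefore called "labelled knockdown" throughout, and each direction given below is that of the labels.

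Adcy5, the adenylyl cyclase that makes most of the cyclic AMP of medium spiny neurons, stood at 11.11, 11.18 and 11.35 in males labelled knockdown, against 10.78, 11.16 and 11.24 in control males. In females labelled knockdown Adcy5 stood at 11.14, 11.32 and 11.49, against 11.50, 11.46, 11.15, 11.40 and 11.23 in control females. Control males 1 and 6, at 10.83 and 10.78, were the lowest of all male arrays, and the other 10 male arrays lay between 11.11 and 11.35. The mean difference of Adcy5 was 0.14 (SE 0.08, 95% interval −0.04 to 0.31) in males and −0.02 (SE 0.09, interval −0.21 to 0.16) in females.

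Gnal encodes the alpha subunit of Golf, the G protein that couples D1 and adenosine receptors to the cyclase, and Gng7 the gamma subunit that assembles with it. Gnal stood at 11.35, 11.44 and 11.58 in males labelled knockdown, against 11.11, 11.35 and 11.58 in control males. In females it stood at 11.83, 12 and 12.07 in the arrays labelled knockdown, against 12.01, 11.91, 11.88, 12 and 11.92 in controls. As with Adcy5, each of the 6 males labelled knockdown lay above the mean of the control males, while the ranges of the groups overlapped. Against the median of the control males this did not hold. The lowest male labelled knockdown stood at 11.11 for Adcy5, below the control median of 11.16, and at 11.35 for Gnal, level with it. The share of other genes with such a pattern was not computed. Gng7 stood at 11.88, 12.07 and 12.22 in males labelled knockdown, against 11.76, 12.02 and 12.18 in control males. Its female values were 12.11, 12.30 and 12.40 under the knockdown label, against 12.41, 12.29, 12.18, 12.31 and 12.14 in controls. The difference in males was 0.12 (SE 0.07) for Gnal and 0.07 (SE 0.07) for Gng7, and in females 0.02 (SE 0.07) and 0.03 (SE 0.08) for the same genes in that order.

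Of the phosphodiesterases on the list, Pde10a encodes a dual enzyme for cyclic AMP and cyclic GMP that is abundant in medium spiny neurons, and Pde1b a calcium- and calmodulin-activated one. Pde10a stood at 10.54, 10.82 and 10.89 in males labelled knockdown, against 10.41, 10.80 and 10.91 in control males. The low value of 10.54 belonged to male knockdown 6, and the other 5 of its group lay between 10.78 and 10.89. In females Pde10a stood at 10.99, 11.04 and 11.18 under the knockdown label, against 11.15, 11.17, 11.06, 11.10 and 10.93 in controls. Pde1b stood at 11.17, 11.32 and 11.41 in males labelled knockdown, against 10.97, 11.26 and 11.42 in control males, and at 11.34, 11.54 and 11.66 in females labelled knockdown, against 11.71, 11.62, 11.50, 11.63 and 11.51 in control females. Male differences were 0.085 (SE 0.08) for Pde10a and 0.10 (SE 0.08) for Pde1b, and female differences −0.03 (SE 0.08) for Pde10a and −0.07 (SE 0.08) for Pde1b, the lowest of the 9.

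Rgs9 encodes an RGS protein whose long form is concentrated in the striatum, and Rasd2 the small G protein Rhes, which dampens dopamine receptor signalling there. Rgs9 stood at 11.11, 11.30 and 11.39 in males labelled knockdown, against 10.91, 11.26 and 11.38 in control males. Under the knockdown label in females it stood at 11.50, 11.71 and 11.74, against 11.78, 11.76, 11.65, 11.74 and 11.62 in controls. Rasd2 varied more between mice. Its 6 values in males labelled knockdown were 9.81, 9.88, 9.90, 9.85, 10.04 and 9.51, against 9.50, 9.95, 9.88, 9.57, 9.95 and 9.27 in control males. Females labelled knockdown held Rasd2 at 10.26, 10.35 and 10.40, against 10.43, 10.31, 10.33, 10.42 and 10.06 in control females. Its residual standard deviation within groups was 0.186, higher than that of 88.6% of named genes, whereas the median of all named genes was 0.12. Syndig1l was close to it, at 0.184, higher than 88.2% of named genes. Rasd2 had the largest male difference of the 9, at 0.145 (SE 0.10, interval −0.07 to 0.36), with 0.04 (SE 0.11) in females, and Rgs9 stood at 0.08 (SE 0.07) in males and −0.04 (SE 0.08) in females.

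Arpp21 encodes the protein kinase A substrate ARPP-21, and Syndig1l a membrane protein of medium spiny neurons also known as capucin. Arpp21 stood at 9.63, 9.53, 9.74, 9.71, 9.68 and 9.36 in males labelled knockdown, against 9.86, 9.76, 9.54, 9.53, 9.62 and 9.30 in control males. Here control male 1, among the lowest for Adcy5, was the highest of all male arrays, while control male 6 was again the lowest. In females Arpp21 stood at 10.05, 10.14 and 10.21 under the knockdown label, against 9.98, 10.15, 10.16, 10.11 and 10.08 in controls. Syndig1l stood at 8.65, 8.84 and 9.12 in males labelled knockdown, against 8.33, 8.80 and 9.08 in control males, and at 9.67, 9.84 and 9.96 in females labelled knockdown, against 9.82, 9.61, 9.59, 9.76 and 9.63 in control females. The Arpp21 difference was 0.0067 (SE 0.08) in males and 0.04 (SE 0.08) in females, and that of Syndig1l 0.095 (SE 0.10) in males and 0.13 (SE 0.11) in females.

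**Figure D1:**
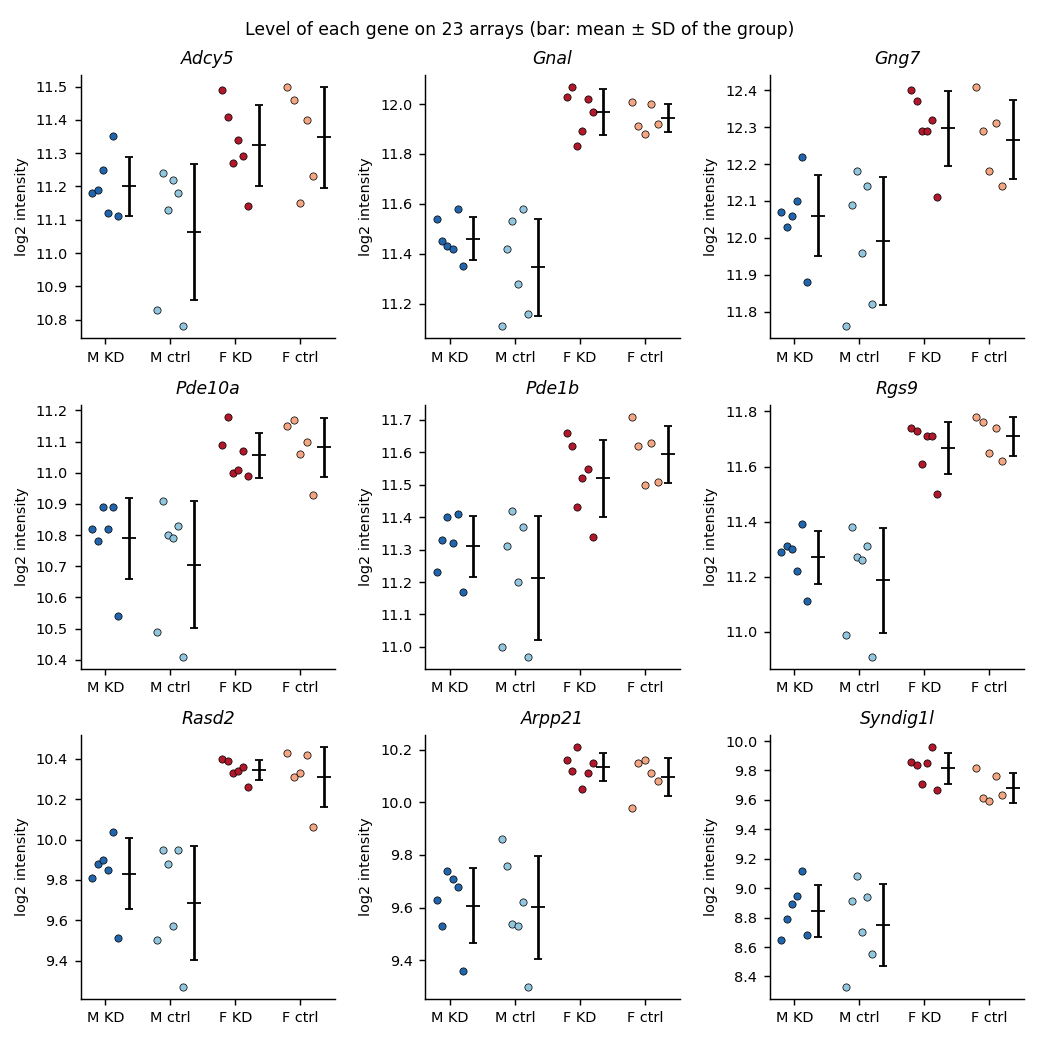
Log2 intensity of each of the 9 genes on every array, in males labelled knockdown (M KD), control males (M ctrl), females labelled knockdown (F KD) and control females (F ctrl); the bar beside each group is its mean ± SD. Knockdown and control overlap in every panel, and for Adcy5 control males 1 and 6, at 10.83 and 10.78, stand below the other male arrays.

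The study set hairpin against scrambled arrays within each sex. Nr1d1 itself did not pass that test, so the comparison below is one of labels. No member passed the test in either sex. The groups of every member overlapped, but the share of all probe sets whose groups overlap was not computed. By limma with Benjamini-Hochberg adjustment over all probe sets, 0 of the 9 genes were called in males or in females, beside 0% of the 41345 probe sets in either sex. At an unadjusted p under 0.05 there were also 0 of 9 in both sexes, beside 4.71% of probe sets in males and 5.86% in females. Adjusted p for the members lay between 0.996 and 0.998 in males and between 0.911 and 0.988 in females.

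In males all 9 differences were above 0, from 0.0067 for Arpp21 to 0.145 for Rasd2, with a median of 0.095 beside a median of 0.0033 for all named genes, although Arpp21 turned to −0.078 with Slc17a7 as a covariate and to −0.005 with quantile normalization within each sex. In females 5 of 9 were above 0, from −0.07 for Pde1b to 0.13 for Syndig1l, with a median of 0.024 beside 0.00033 for all named genes, and Gnal turned to −0.001 with arrays centred on their median. These members move together between mice, as described below, so their signs are not separate observations. Control males 1 and 6 set much of the male value. With both left out, a choice made with their low values known, the male difference of 7 genes was below 0, reaching −0.06 for Syndig1l, and only Adcy5 and Gnal stayed above it. On the Slc17a7 marker the same male contrast stood at 1.17 (SE 0.85). With Slc17a7 as a covariate the male differences of the other 8 genes lay between 0.057 for Pde10a and 0.133 for Adcy5, again with 0 called.

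The test of the difference between the sexes called 0 of 9 members, beside 0% of probe sets. At an unadjusted p under 0.05 it again held 0 of 9, beside 5.7% of probe sets. The male minus female difference was largest for Pde1b, at 0.17 (SE 0.11, interval −0.05 to 0.40), and for Adcy5, at 0.16 (SE 0.12, interval −0.09 to 0.41). Averaged over the sexes, the labelled knockdown stood 0.01 (Pde1b) to 0.11 (Syndig1l) above control, with 0 of 9 called beside 0% of probe sets, and 0 of 9 at an unadjusted p under 0.05 beside 4.71%. These signs were not stable: without control males 1 and 6 the averages of Adcy5, Gng7, Pde10a, Pde1b and Rgs9 were below 0, and with Slc17a7 as a covariate that of Arpp21 was −0.016. The intervals of that average reached at most 0.27, for Syndig1l, and at least −0.10, for Pde1b.

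**Figure D2:**
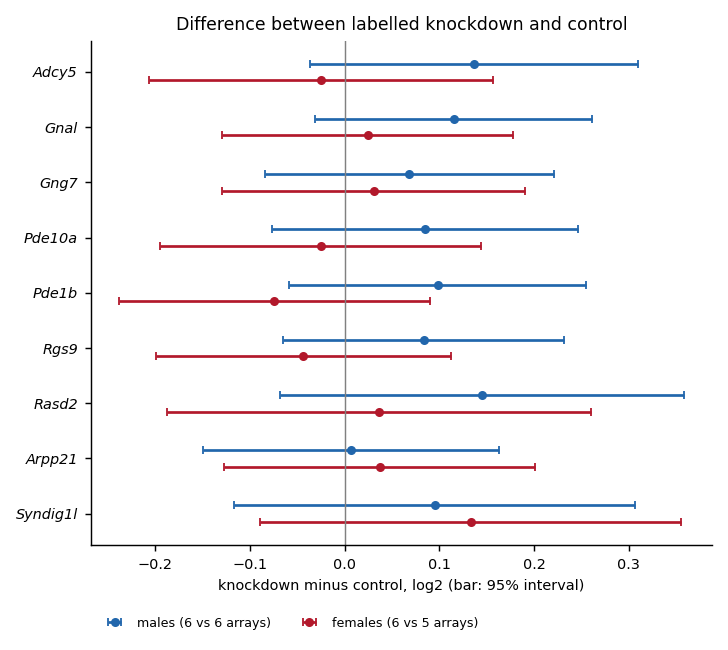
Difference of labelled knockdown minus control on the log2 scale for each gene in males (blue, 6 against 6 arrays) and females (red, 6 against 5 arrays); points are limma estimates and bars 95% intervals. Every interval crosses 0, and all 9 male estimates lie to the right of it.

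No other listed gene of the pathway passed the test between labelled knockdown and control. Of 82 such genes, 76 had a probe set of their own. By limma 0 of 76 were called in either sex, and 2 of 76 in each sex had an unadjusted p under 0.05. The smallest p in males belonged to Pde4d, a cyclic AMP phosphodiesterase, at −0.11 (SE 0.05, adjusted p = 0.996 by limma), and Rap1gap, a regulator of the small G protein Rap, at 0.14 (SE 0.07, adjusted p = 0.996). In females these were Adcy7, another adenylyl cyclase, at −0.24 (SE 0.10, adjusted p = 0.841), and Gnaq, the Gq alpha subunit, at −0.10 (SE 0.05, adjusted p = 0.85). The 5 measured receptors, Drd1, Drd2, Gpr6, Gpr52 and Chrm4, had a median difference of 0.088 in males and 0.0090 in females, and the 16 phosphodiesterases outside the members one of 0.022 in males and 0.020 in females. Averaged over the sexes, Adcy7 at −0.19 (SE 0.07) and Prkar1a, a regulatory subunit of protein kinase A, at −0.07 (SE 0.03) had the smallest p, with adjusted p = 0.98 each. For the male minus female difference the smallest p were those of Rap1gap at 0.22 (SE 0.10, adjusted p = 0.862) and Gnaz, a Gi-family alpha subunit, at −0.13 (SE 0.07, adjusted p = 0.873).

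Between mice of the same group, 8 of the 9 genes rose and fell together. No pair with Arpp21 passed over all 23 arrays, although 3 of 8 did without control male 1. After each array's deviation from its group mean was taken, the 28 pairs among the 8 genes other than Arpp21 had Pearson correlations of 0.665 to 0.933 over 23 arrays, with a median of 0.835. Their Spearman correlations ran from 0.613 to 0.936, and all 28 passed a permutation test within groups after adjustment over the 36 pairs (highest adjusted p = 0.00741). Setting Arpp21 apart was not part of the plan, which took all 36 pairs. The share of pairs of other genes that pass on these arrays was not computed. With the 2 arrays farthest from the median of the first gene of each pair left out, r lay between 0.491 and 0.909. The 8 pairs that include Arpp21 had r of 0.0032 to 0.459, and 0 of 8 passed (lowest adjusted p = 0.157). The closest pair was Gng7 with Pde1b (r = 0.933).

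Within males all 28 pairs without Arpp21 passed, with r of 0.743 to 0.962, and within females 17 of 28 passed, with r of 0.397 to 0.947. The pairs with Arpp21 ran from 0.103 to 0.551 in males and from −0.673 to −0.0954 in females, and 0 of 8 passed in either sex. When the slope on Slc17a7 was removed first, the 28 pairs kept r of 0.684 to 0.933. The pairs with Arpp21 then had r of 0.19 to 0.464, and 0 of 8 passed. Without control males 1 and 6 together, 26 of the 28 passed, and of the pairs with Arpp21 1 of 8 did. Without control male 1 alone the pairs with Arpp21 had r of 0.396 to 0.754, with a median of 0.458 against 0.148 over all arrays, and 3 of 8 passed, as did all 28 others. Without control male 6 alone they had r of −0.219 to 0.199, and 0 of 8 passed. All points share a dissection and an array per mouse, so these correlations describe tissue samples and not single cells.

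**Figure D3:**
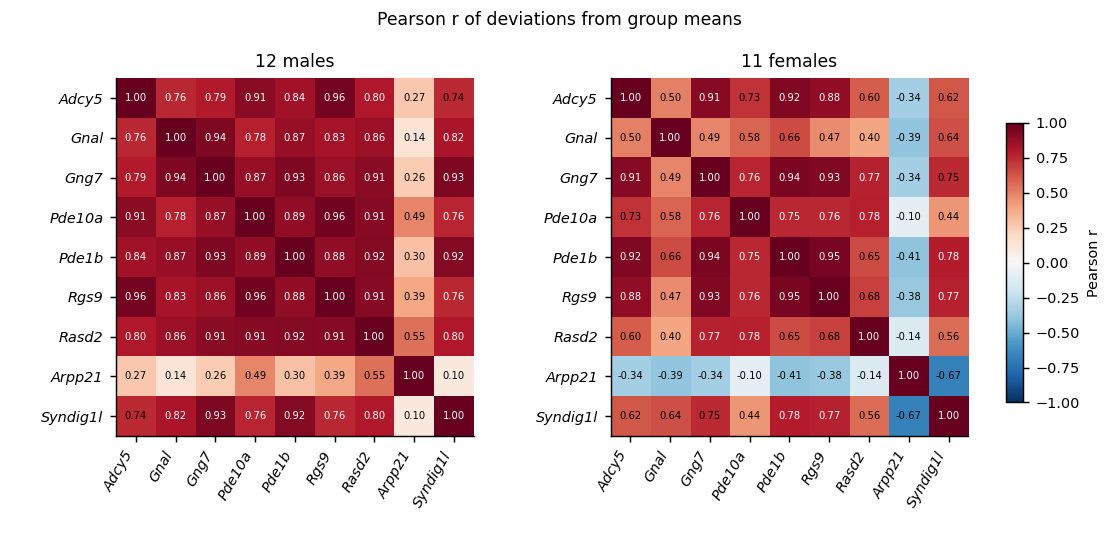
Pearson correlation of each pair of genes between arrays, computed on deviations from the group means in 12 males (left) and 11 females (right); red is positive and blue negative. The row of Arpp21 holds the lowest values of both panels, while all other pairs are positive, from 0.397 upward.

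The arrays at the ends of this shared movement can be named. The mean deviation of the 8 genes was lowest in control male 6 at −0.26, control male 1 at −0.24 and male knockdown 6 at −0.18, and highest in control males 3 and 5 at 0.17 each. In females it ran from −0.13 in knockdown 6 and −0.11 in control 5 to 0.11 in control 1. The low male arrays differed in their markers of other tissue. Control male 1 had Slc17a7 at 10.34, the highest of the 12 males, and Slc17a6 at 7.21. Control male 6 had Slc17a7 at 4.64, the lowest, and Slc17a6 at 7.97, the highest, and male knockdown 6 had 5.37 and 7.66 for the same genes in that order. The 5 listed septal and other subcortical markers were Slc17a6, Trpc4, Zic1, Zic2 and Drd3, a dopamine receptor. Their mean is thus not specific to tissue outside the accumbens. It lay between 7.51 and 7.76 in males labelled knockdown and between 7.43 and 7.93 in control males. Control male 6 had 7.93, male knockdown 6 had 7.74 and control male 1 had 7.72. Like values stood on males whose 8 genes deviated little on average. They were 7.76 in male knockdown 2, 7.75 in male knockdown 1 and 7.72 in control male 4. Slc17a6 in control male 4 was 7.49. The part of such tissue in the members' levels was not tested.

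The genes whose deviations were most like those of each member were ranked over all named genes and 23 arrays. For Adcy5 they were Gpr6 (r = 0.869), an orphan receptor of D2-type medium spiny neurons, Rasgrp2 (0.866), an exchange factor for Rap, and Smpd3 (0.855). For Gnal they were Gabrg3 (0.916), Necab2 (0.915) and Drd2 (0.913), and for Gng7 Arhgap33 (0.938), Tbc1d8 (0.925) and Scmh1 (0.891). Pde10a was followed by Strn (0.923), Sez6 (0.921) and Rin1 (0.909), and Pde1b by Drd2 (0.927), Dtnb (0.898) and St8sia2 (0.887). Rgs9 had Rasgrp2 (0.903), Inf2 (0.895) and Ndrg4 (0.891), Rasd2 had Rin1 (0.947), Inf2 (0.908) and Tbc1d8 (0.899), and Syndig1l had Grm4 (0.883), Pogz (0.871) and Lrrtm1 (0.861). Arpp21 was followed instead by Bsn (0.948), a scaffold protein of the presynaptic active zone, Zfp365 (0.924) and Kcnv1 (0.902). Among the 100 genes nearest to each of the 8 others were 5 to 7 of the 8 remaining members, while 0 of 8 were among the 100 nearest to Arpp21, for which Slc17a7 held place 11.

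One promoter window each is shown for the closest pair and for Arpp21, whose correlations with the others shifted when single arrays were left out. The windows were picked from several per gene. They are the 250 bases before to 50 bases after a transcription start, from RefSeq on GRCm38.p6, read 5′ to 3′ on the gene's strand. Capitals mark the GC box (GGGCGG or its reverse complement CCGCCC), a binding motif of Sp-family factors. The Gng7 window lies at chr10:81014876-81015175 on the minus strand, the Pde1b window at chr15:103502784-103503083 on the plus strand, and the Arpp21 window at chr9:112233673-112233972 on the minus strand.
Gng7: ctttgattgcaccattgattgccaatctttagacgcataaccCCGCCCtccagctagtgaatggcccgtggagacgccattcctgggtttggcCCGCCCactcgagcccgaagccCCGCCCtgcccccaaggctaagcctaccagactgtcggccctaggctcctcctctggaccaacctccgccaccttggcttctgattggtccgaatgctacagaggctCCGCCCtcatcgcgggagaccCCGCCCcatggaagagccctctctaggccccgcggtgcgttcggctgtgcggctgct
Pde1b: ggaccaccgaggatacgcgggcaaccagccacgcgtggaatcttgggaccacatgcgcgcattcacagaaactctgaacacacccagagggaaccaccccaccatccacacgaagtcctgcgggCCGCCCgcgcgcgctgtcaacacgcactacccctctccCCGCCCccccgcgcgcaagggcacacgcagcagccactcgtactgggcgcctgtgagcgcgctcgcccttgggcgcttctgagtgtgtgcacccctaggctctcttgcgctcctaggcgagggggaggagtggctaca
Arpp21: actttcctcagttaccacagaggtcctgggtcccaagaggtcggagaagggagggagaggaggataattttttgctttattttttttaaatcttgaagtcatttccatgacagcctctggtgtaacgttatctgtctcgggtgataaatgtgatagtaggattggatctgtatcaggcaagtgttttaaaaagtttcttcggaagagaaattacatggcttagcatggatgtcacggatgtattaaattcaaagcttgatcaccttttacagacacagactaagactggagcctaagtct

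The Gng7 window holds 5 GC boxes and is 63.7% G and C, the Pde1b window 2 and 67%, and the Arpp21 window 0 and 40.7%. Other windows of the same genes differ: the second Gng7 window is 58% G and C, the other Pde1b windows are 44% and 51%, and none of these holds a GC box. The 9 Arpp21 windows run from 40.3% to 57.7%, and the Rasd2 window, at 74.7%, holds 0 GC boxes. The median window of all 32851 in the table is 52.7% G and C, and 35.7% of them hold a GC box on either strand. Of 19 windows of 7 members, Adcy5, Arpp21, Gng7, Pde10a, Pde1b, Rasd2 and Rgs9, 6 hold a GC box, and 0 of the 9 Arpp21 windows do. Several Arpp21 windows overlap each other, so the 19 are not separate observations. Windows on chromosome 18, where Gnal lies, were left out for the members but not among the 32851. No window of Syndig1l was found. The full cyclic AMP response element (TGACGTCA) was in 0 of the 19 and in 1.79% of all windows, and its core (TGACG or CGTCA), which the full element contains, in 4 of the 19 and in 20.8% of all. The hexamer bound by REV-ERB and ROR receptors (AGGTCA or TGACCT) was in 1 of the 19, an Arpp21 window, and in 16.3% of all. A match is only a run of letters in these windows, and a window without one says nothing of a factor.

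The slope on Slc17a7 asks how much each gene changed, between mice of the same group, with a marker of cortical excitatory neurons. It is given as log2 change per log2 unit of Slc17a7. Arpp21 rose with Slc17a7, and the other 8 genes showed no common slope over all 23 arrays. Arpp21 had a slope of 0.072 (SE 0.011, 95% interval 0.049 to 0.095), with adjusted p = 0.0005 by limma. It was the 1 member called, beside 3.15% of probe sets called in all. Of all probe sets, 1.55% were called with a positive and 1.6% with a negative slope. The other 8 lay between −0.017 for Syndig1l and 0.032 for Rasd2, with adjusted p of 0.656 or more.

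Arpp21's slope was called in each of 23 runs that left out 1 array, between 0.063 and 0.077. In males alone it was 0.073 (SE 0.014, adjusted p = 0.0279 by limma), beside 1.22% of probe sets called, and in females alone 0.058 (SE 0.035, adjusted p = 0.712), beside 0.414%. The male minus female difference of its slopes was 0.016 (SE 0.040). The male call was lost without control male 1, 2 or 6 or without male knockdown 3, 4 or 6, with adjusted p of 0.0526 to 0.118. As Slc17a7 falls into separate clusters in males, the slope was also taken, after the values were seen, over the 8 males at or above 8.01, where it was 0.126 (SE 0.038) with adjusted p = 0.46. Slopes of the same sign and similar size came from the arrays labelled knockdown alone, 0.072 (adjusted p = 0.23), and from the control arrays alone, 0.072 (adjusted p = 0.0921).

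In males alone the slopes of the 8 other genes lay between −0.0095 for Syndig1l and 0.041 for Rasd2, with 0 of 8 called. In females alone all 8 slopes were below 0, and 0 of 8 were called after adjustment. Pde1b had −0.11 (SE 0.042, interval −0.21 to −0.02, adjusted p = 0.412 by limma) and Adcy5 −0.13 (SE 0.053, interval −0.24 to −0.01, adjusted p = 0.493). These were the 2 of 9 with an unadjusted p under 0.05, beside 4.67% of probe sets with such a p and a negative slope. Per array the correlation with Slc17a7 over 11 females was −0.742 for Pde1b (Spearman −0.773, permutation p = 0.0146, adjusted over 18 relations 0.116) and −0.733 with the 2 females farthest in Slc17a7 left out. For Rasd2 it was weakest, at −0.347 (Spearman −0.445, permutation p = 0.264, adjusted 0.432), and −0.0391 without the 2 farthest. For Arpp21 it was 0.642 (Spearman 0.591, permutation p = 0.0408, adjusted 0.124), and 0.64 without the 2 farthest.

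The male minus female difference of slopes was above 0 for all 9 genes, from 0.016 for Arpp21 to 0.14 for Adcy5 (SE 0.069, interval 0.0007 to 0.29, adjusted p = 0.80 by limma). No member passed that test, beside 0.00242% of probe sets, and at an unadjusted p under 0.05 it held 1 of 9, Adcy5, beside 6.23%. Slc17a7 spanned 4.64 to 10.34 in males and 8.92 to 11.13 in females, so the slopes cover unlike ranges. Most of these genes move together between mice, so their signs are not separate observations. Sex also cannot be told apart from array processing here.

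Much of the male pattern rested on male knockdown 6 and control male 6, both low in Slc17a7 and high in Slc17a6. These were the 2 arrays farthest from the median of the Slc17a7 deviations. Control male 1, at 10.34 beside a group mean of 7.46, lay far on the high side and was kept. Like the 2 left out, it was among the lowest males in the mean deviation of the 8 genes. With male knockdown 6 and control male 6 left out, all 8 genes had negative slopes over the other 21 arrays, from −0.083 for Syndig1l to −0.032 for Pde10a. Gnal, at −0.068 (SE 0.017, adjusted p = 0.0417 by limma), was then the 1 member called with a negative slope, beside 2.58% of probe sets called in all and 1.2% with a negative slope. Arpp21 kept a positive slope of 0.057 (adjusted p = 0.042).

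**Figure D4:**
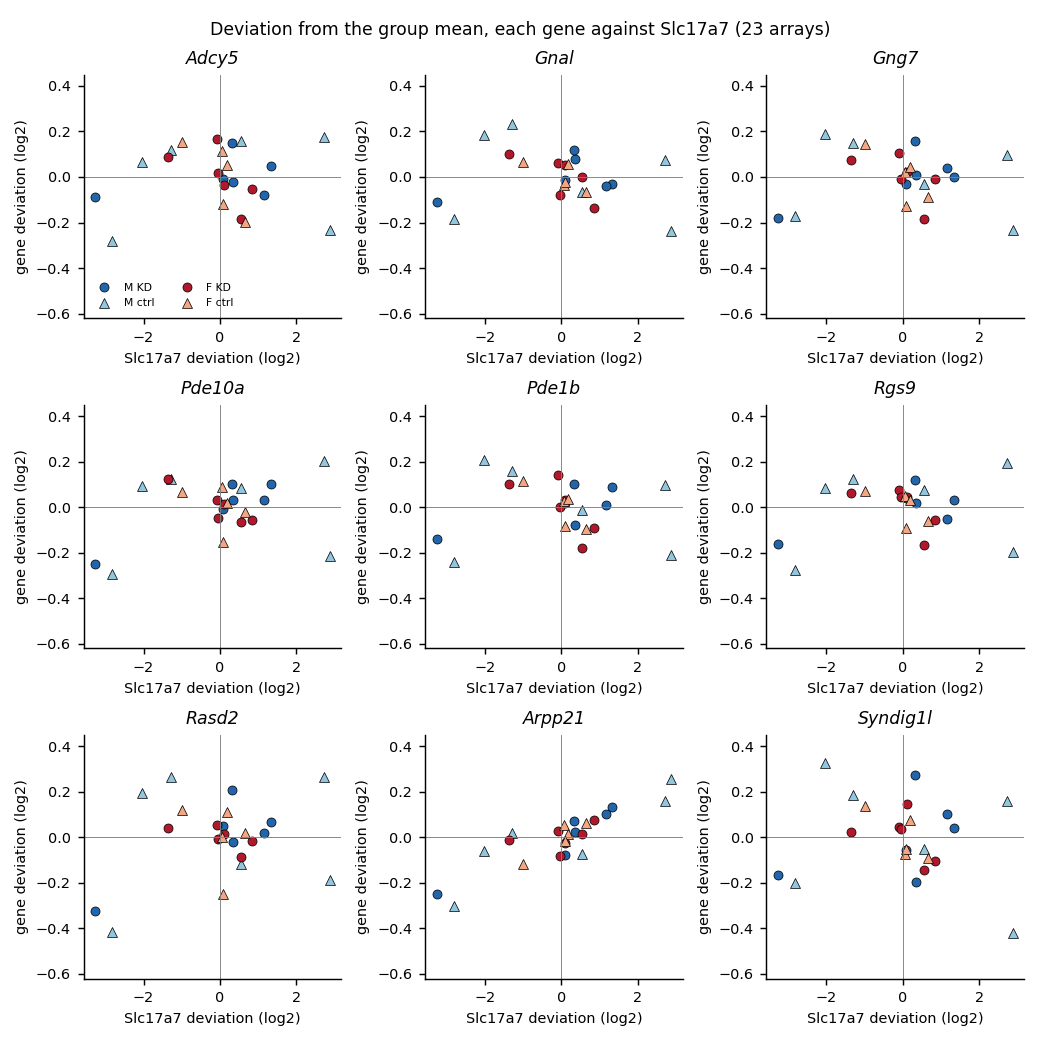
Deviation from the group mean of each gene (vertical, log2) against that of Slc17a7 (horizontal, log2) on 23 arrays; circles are arrays labelled knockdown and triangles controls, with males in blue (M) and females in red and orange (F). Arpp21 rises along the diagonal, while in the other panels the low male arrays are control male 1 on the right, where control male 2 is high, and control male 6 and male knockdown 6 on the left, where control males 3 and 5 are high.

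**Figure D5:**
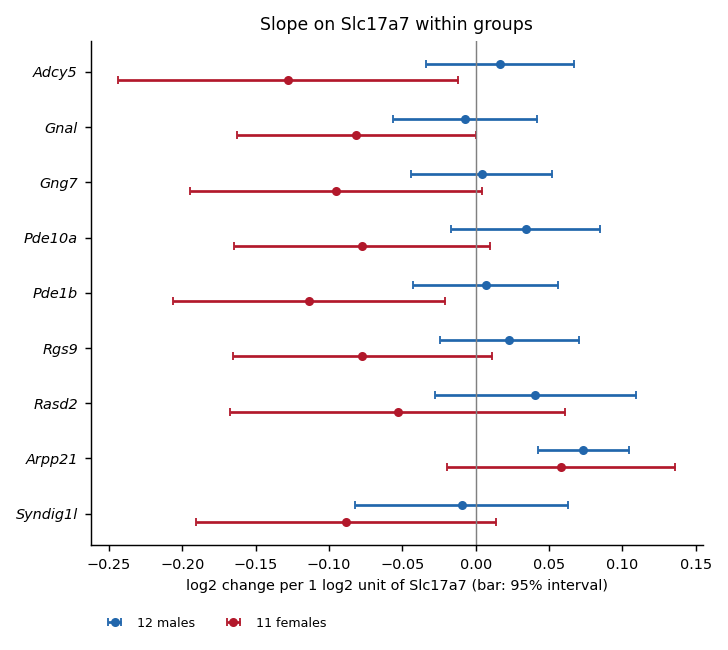
Slope on Slc17a7 within groups for each gene, fitted in 12 males (blue) and 11 females (red) alone, with 95% intervals. The female estimates of 8 genes lie left of 0, from −0.13 for Adcy5 to −0.05 for Rasd2, and Arpp21 lies right of 0 in both sexes.

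With Slc17a6 entered beside Slc17a7, a fit added after the values were seen, each of the 9 genes had a negative slope on Slc17a6, with a median of −0.287 beside −0.0016 for all named genes. Rasd2 had the steepest, −0.50 (SE 0.071, interval −0.65 to −0.35, adjusted p = 0.0251 by limma), and was the 1 member called, beside 0.0435% of probe sets. Syndig1l followed at −0.43 (SE 0.094, adjusted p = 0.0867) and Gnal at −0.31 (SE 0.061, adjusted p = 0.0638), while Arpp21 had −0.083 (SE 0.055, adjusted p = 0.627). In that fit the slope of Arpp21 on Slc17a7 was 0.062 (adjusted p = 0.0102), beside 2.29% of probe sets called. The Rasd2 call was lost without control male 1, 2, 3, 5 or 6 or without male knockdown 6 (adjusted p up to 0.209). Without control male 6 and male knockdown 6 together the slope was −0.39 (adjusted p = 0.58).

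In the 12 males, Rasd2 and Slc17a6 correlated at −0.937 (Spearman −0.956, permutation p = 0.0004, adjusted over 18 relations 0.0072), and at −0.836 with the 2 males farthest in Slc17a6 left out. Pde10a (r = −0.846, Spearman −0.926, permutation p = 0.00525, adjusted 0.0394) and Rgs9 (r = −0.812, Spearman −0.818, permutation p = 0.00656, adjusted 0.0394) also passed, with −0.585 for Pde10a and −0.562 for Rgs9 without those 2. By Spearman's rho Gnal, Gng7 and Pde1b passed as well, with adjusted permutation p of 0.0364, 0.0351 and 0.0347 in that order. Arpp21 had r = −0.754, the same as Gng7, with Spearman −0.587 (permutation p = 0.0115, adjusted 0.0519 for r). The share of other genes that pass this test was not computed. In the limma fit beside Slc17a7 in males alone, adjusted p over all probe sets was 0.0842 for Rasd2, the lowest of the 9. In the 11 females, where Slc17a6 varied less, r ran from −0.461 for Rasd2 to 0.305 for Adcy5, and 0 of 9 passed.

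Of the 76 other pathway genes, 6 rose with Slc17a7 and 3 fell, beside 533 that rose and 489 that fell among 22179 named genes, and beside the 1.55% and 1.6% of probe sets given above. Adcy1, the calcium-stimulated cyclase of cortical and hippocampal neurons, had the steepest slope at 0.27 (SE 0.027, adjusted p = 5.99e-06 by limma), and it was called in males alone (0.25) and in females alone (0.44). Pde5a, a cyclic GMP phosphodiesterase, at 0.11, Adcy9, a widely expressed cyclase, at 0.08, Rgs4, an RGS protein abundant in cortex, at 0.06, Gng12 at 0.05 and Arpp19, an inhibitor of protein phosphatase 2A once phosphorylated, at 0.04 also rose. Rgs10 at −0.09, and the phosphodiesterases Pde11a at −0.09 and Pde8a at −0.07, fell. In males alone Adcy9, Pde5a, Pde8a and Rgs10 were also called, and in females alone Pde5a (0.40).

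Those slopes stood beside the following marker values. Of the 7 cortical markers measured apart from Slc17a7, 4 were called with a positive slope: Neurod6 at 0.60, Tbr1 at 0.44, Neurod2 at 0.43 and Fezf2 at 0.34. The mean level of the cortical list lay between 6.29 and 7.92 in males labelled knockdown, between 6.19 and 8.32 in control males, between 7.38 and 8.44 in females labelled knockdown and between 7.50 and 8.24 in control females. Of the 4 medium spiny neuron markers outside the members, 0 were called, at slopes of −0.020 for Penk to 0.003 for Tac1. In females alone all 4 had negative slopes, with a median of −0.14. Of 6 interneuron markers 2 were called with a negative slope, Chat of cholinergic interneurons at −0.12 and Kit at −0.06. Their part in the members' slopes was not tested.

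The Arpp21 locus also hosts a microRNA. Mir128-2 lies within Arpp21, at chr9:112118636-112118711 inside chr9:112065091-112236288 on GRCm38.p6, and gives rise to miR-128-3p, a microRNA abundant in brain. Its mature sequence in RefSeq, shown because its gene lies inside a member, has its seed (bases 2 to 8) in capitals.
miR-128-3p: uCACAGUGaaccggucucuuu

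The Mir128-2 probe set showed a slope on Slc17a7 of 0.039 (SE 0.036, adjusted p = 0.724 by limma), with an interval of −0.036 to 0.113 that includes the slope of Arpp21, 0.072. Mir128-1, which encodes the same mature microRNA elsewhere in the genome, had 0.068 (SE 0.020, adjusted p = 0.0722). The Mir128-2 labelled knockdown minus control difference was 0.01 (SE 0.14, adjusted p = 0.998) in males and 0.40 (SE 0.15, adjusted p = 0.839) in females. The second probe set that touches Arpp21, shared with another transcript, had a slope on Slc17a7 of 0.031 (SE 0.013, adjusted p = 0.271). The one shared between Gnal and Mppe1 had 0.012 (SE 0.013, adjusted p = 0.777).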

How the data were processed

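The 23 arrays were grouped by the labels into 4 groups of 5 or 6 mice. The authors deposited log2 intensities in a single table of 41345 probe sets, made with Transcriptome Analysis Console per the submitters' processing notes. Its version, summarisation, normalization and build were not given in the sources used here, and no measure of signal over background was used. Per the labels' protocols, 150 ng of total RNA entered a whole-transcript labelling kit. Array medians and quartiles differ between the sexes and hardly within them, so the sexes may have been normalized separately. The number of arrays limits the precision. Each array is a separate mouse, described as a biological replicate, and p-values measure the spread between these mice.

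Probe sets were named through the platform annotation, which gave 1 symbol for 23521, several for 1814 and none for 16010. A gene is the probe set with that symbol alone and the highest mean. limma 3.58.1 in R 4.3.3 fitted 1 mean per group on all 23 arrays (lmFit and eBayes, two-sided, Benjamini-Hochberg over all probe sets, threshold 0.05), with contrasts of knockdown against control. The slope added Slc17a7 centred within groups, which left 41344 probe sets. The scripts were tested on simulated data. Correlations used deviations from group means and 100000 permutations within groups (scipy 1.17.1). Permuted p-values rest on these mice and cannot be lower than 1e-05.

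Named genes are the 9 members, Nr1d1, Slc17a7, in each comparison the listed pathway genes past the threshold (at most 10, by size) or else the 2 with the smallest p, and the 3 genes most like each member. Slc17a6 and Mir128-2 were named after values were seen. The members, the gene lists and the rule were chosen with earlier results of these data known. Alternatives were other scalings, filters, weights and priors, a replicate block, other covariates and arrays left out.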

Additional observations from a re-analysis of the deposited data

Results flagged for a closer look

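Of 44 sets of values of 1 gene in 1 group that were screened for a single array far from the others, 3 held one, and chance alone gives about 1 in 20. Pde10a, a phosphodiesterase of medium spiny neurons, was lowest in male knockdown 6 at 10.54, while the other 5 males labelled knockdown lay between 10.78 and 10.89. On the same array the cortical marker Slc17a7 was lowest, at 5.37, against 8.72 to 9.97 on the other 5. Nr1d1 was lowest in control female 4 at 9.93, while the other 4 control females lay between 10.05 and 10.09.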

How the results depend on the processing

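Outside the runs that left out a single array, 424 of the single-gene results kept direction and side of the threshold, 6 lost a call, 1 gained one and 54 changed sign. The cause was not tested. Knockdown differences below are labelled knockdown minus control. Scaling turned the male Arpp21 difference to −0.005 with quantile normalization within each sex and −0.0091 with array weights, and centring on array medians gave female Gnal −0.001 and a male minus female Arpp21 difference of 0.003. Array weights also gave 1 call for the male minus female difference and an Adcy5 slope of −0.0028. With Slc17a7 as a covariate the male differences were −0.078 for Arpp21 and 0.020 for Nr1d1, and the average for Arpp21 was −0.016.

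Same-numbered arrays of a sex did not pair: r of their deviations lay between −0.0959 and 0.135 in 11 pairs, and 2 of 11 arrays matched their own number best. With the replicate block the female Adcy5 difference was 0.012, the slope on Slc17a7 was called for 152 probe sets and for 0 members with a positive slope (Arpp21 0.074, SE 0.02, adjusted p = 0.2 by limma), and slopes were −0.0058 for Adcy5, −0.0064 for Pde10a, −0.015 for Rgs9 and −0.013 for Rasd2.

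Without control males 1 and 6, chosen after their values were seen, 1 probe set was called in males and 1 for the male minus female difference. Male differences were then −0.033 for Gng7, −0.043 for Pde10a, −0.015 for Pde1b, −0.035 for Rgs9, −0.0058 for Rasd2, −0.0042 for Arpp21 and −0.061 for Syndig1l. Averages were −0.0086 for Adcy5, −0.00092 for Gng7, −0.034 for Pde10a, −0.045 for Pde1b and −0.039 for Rgs9, and male minus female differences −0.015 for Gnal, −0.063 for Gng7, −0.017 for Pde10a and −0.043 for Rasd2. The slope was called for 690 probe sets, and 1 pair with Arpp21 passed.

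The slope on Slc17a7 was called for 506 probe sets in males alone (Gng7 0.0041, Pde1b 0.0069), and for 171 and 0 members in females alone (Adcy5 −0.128, Pde10a −0.078, Rgs9 −0.077, Rasd2 −0.053), where 17 pairs passed, none with Arpp21. It was called for 27 in arrays labelled knockdown with 0 members (Gnal 0.0051, Gng7 0.028, Pde1b 0.016, Syndig1l 0.032), and for 179 in controls with 0 members. In the males with Slc17a7 above 7 it was called for 17 with 0 members (Adcy5 −0.076, Pde10a −0.026, Rgs9 −0.047). The mean of the cortical markers gave Adcy5 −0.034, and linear Slc17a7 intensity gave Adcy5 −0.097, Pde10a −0.017 and Rgs9 −0.045. Without the 2 farthest arrays slopes were −0.045 for Adcy5, −0.032 for Pde10a, −0.035 for Rgs9 and −0.043 for Rasd2, with 1 member called lower. Beside Slc17a6 they were −0.022, −0.011, −0.018 and −0.028 for the same genes in that order. The slope on Slc17a6 had 0 calls without control male 6 and male knockdown 6.

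Leaving out 1 array at a time gave 0 to 1 called probe sets in males and for the male minus female difference (1 without control male 1 or 5) and in females (1 without female knockdown 1 or male knockdown 4). Female differences ran from −0.074 to 0.013 for Adcy5, −0.00083 to 0.068 for Gng7, −0.026 to 0.067 for Rasd2 and −0.088 to 0 for Nr1d1, and male ones from −0.054 to 0.058 for Arpp21 and −0.048 to 0.041 for Nr1d1. Averages ran from −0.012 to 0.033 for Pde1b, −0.0077 to 0.039 for Rgs9 and −0.0082 to 0.048 for Arpp21. Male minus female differences ran from −0.0087 to 0.075 for Gng7, −0.091 to 0.021 for Arpp21 and −0.122 to 0.028 for Syndig1l. Slope calls ran from 821 (without control male 2) to 1437, with slopes of −0.021 to 0.025 for Adcy5, −0.034 to 0.0036 for Gnal, −0.027 to 0.015 for Gng7, −0.026 to 0.014 for Pde1b, −0.0070 to 0.035 for Rgs9 and −0.041 to 0.017 for Syndig1l.

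In females alone slope calls ran from 43 to 155, lowest without female knockdown 2 (43) or control 1 (49), then female knockdown 3 (61), control 3 (80), knockdown 6 (81) and control 4 (110). In males alone they ran from 109 to 596, with 109 without control 2, 217 without control 1, 216 without control 6, 314 without male knockdown 3 and 215 without male knockdown 6. Male slopes ran from −0.0071 to 0.045 for Adcy5, −0.028 to 0.014 for Gnal, −0.017 to 0.029 for Gng7, −0.015 to 0.031 for Pde1b and −0.034 to 0.031 for Syndig1l. Slope calls on Slc17a6 ran from 0 to 50, and pairs with Arpp21 from 0 to 3, with 3 without control male 1. Every member has 1 probe set, so the mean over probe sets gave no separate value. The number of arrays limits these results.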
